A study of Danio rerio with 6 samples.

Results

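Respiratory chain genes were compared in messenger RNA from zebrafish (Danio rerio) trunks taken 24 to 26 h after fertilization. They were chosen by name: every gene whose symbol began with mt-nd, mt-co, mt-cyb, mt-atp, ndufa, ndufb, ndufc, ndufs, ndufv, sdha to sdhd, uqcr, cox4 to cox8 or atp5. That gave 109 of 24789 genes. Of these, 13 are the protein genes of mitochondrial DNA, 83 are nuclear genes for subunits, and 13 are nuclear genes for assembly factors or regulators that share the prefixes. The ndufa4 names were counted with complex IV, where the protein sits.

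The 3 qkia/c loss of function libraries came from qkia-/- embryos that had received a qkic morpholino. The 3 control libraries came from siblings that were qkia+/+ or qkia+/- and had received a control morpholino. All embryos were thus morpholino-injected, with 0.6 pmol, and were offspring of qkia+/- parents. They were told apart by their morphology, heads and yolk were removed, and the number of embryos per library is not given. Genotype and morpholino changed together, so their parts cannot be told apart. The Quaking proteins encoded by qki genes bind RNA, and the series asked which genes depend on qkia and qkic.

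The respiratory chain passes electrons from NADH and succinate to oxygen through complexes I to IV of the inner mitochondrial membrane and pumps protons as it does so. Complex V, the ATP synthase, uses the proton gradient to make ATP. Complexes I, III, IV and V are built from subunits of both genomes, while complex II is entirely nuclear. The mitochondrial genes are copied as long transcripts of nearly the whole circle and cut into single messages, most of which carry a short poly(A) tail. Trunks of this age are rich in muscle, a tissue with a high demand for ATP.

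The mutated gene qkia had normalized read counts of 5.98, 6.93 and 3.34 in loss of function trunks, against 61.7, 81.9 and 58.9 in control trunks. A normalized read count is the read count of a gene divided by the size factor of its library. Its log2 change was -3.45 (SE 0.30, limma adjusted p = 1.93e-07). Reads recovered from the gene values numbered 38804265 to 44799398 per library. These exceed the mean of 27459238 quality-filtered reads per sample that the labels' protocols give. Loss of function libraries resembled each other more than control libraries did, with a chi-square per degree of freedom of 2.18 to 2.54 between loss of function pairs and 8.40 to 15.1 between control pairs. The series calls them biological triplicates without saying how many embryos each holds, and the p-values rest on the spread within these triplicates.

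Nearly the whole chain was more abundant in loss of function trunks, by small amounts. Of the 107 members that passed the filter on low values, 86 rose and 1 fell at a limma adjusted p under 0.05, while 21.9% of the 18917 genes tested rose and 20.0% fell. The median log2 change of the members was 0.30, against 0.00 for all genes tested. Expression did not overlap between the groups in 94 members, of which 92 were higher in loss of function trunks and 2 (ATP5MC3 and NDUFAF5) lower, where 26.8% of all genes tested were higher without overlap and 25.4% lower. Most changes were under 1.5-fold: only 6 members reached that in the ratio of the group means. In RNA of whole trunks, a change in the number of cells of a type and a change in RNA per cell cannot be told apart.

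The size of these counts depended on the scaling. The deposited values summed to 43261678 to 44672244 in loss of function libraries and to 38854614 to 40728502 in control libraries. When every library was scaled to the same total, the median log2 change of all genes moved to -0.14. The calls over all genes then divided into 2147 higher and 6225 lower, or 25.6% higher, against 4143 and 3792 with the deposited scaling, or 52.2% higher. With that scaling 59 members rose and 4 fell, while 11.3% of all genes rose and 32.9% fell. The median of the members was then 0.16. With the same total of the genes outside mitochondrial DNA, 65 members rose and 2 fell, where 13.4% of all genes rose and 29.4% fell.

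The 13 mitochondrial genes held most of the summed values of the members, 87.7% on average in loss of function and 85.1% in control libraries. They made up 8.36%, 8.52% and 8.10% of all gene values in loss of function libraries, against 6.00%, 6.12% and 6.30% in control libraries. The groups did not overlap, and the mean shares of 8.33% ± 0.213 and 6.14% ± 0.147 (SD, n = 3 in each group) stood in a ratio of 1.36. Counting error on these shares was far below the spread between libraries, with 95% Wilson intervals at most 0.0172 percentage points wide. The intervals take all recovered reads as independent. Since these reads exceed the mean that the labels' protocols give, the intervals may be too narrow. The nuclear subunit genes took 1.14%, 1.11% and 1.14% in loss of function libraries, against 1.04%, 1.03% and 1.05% in control libraries. The sum of the mitochondrial values was 7.33, 7.66 and 7.13 times that of the nuclear subunits in loss of function libraries, against 5.78, 5.95 and 6.01 times in control libraries. The groups did not overlap in either measure. The mean sum over all genes was 4034752 higher in loss of function libraries, and the mitochondrial genes made up 1207252 of that difference.

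**Figure D1:**
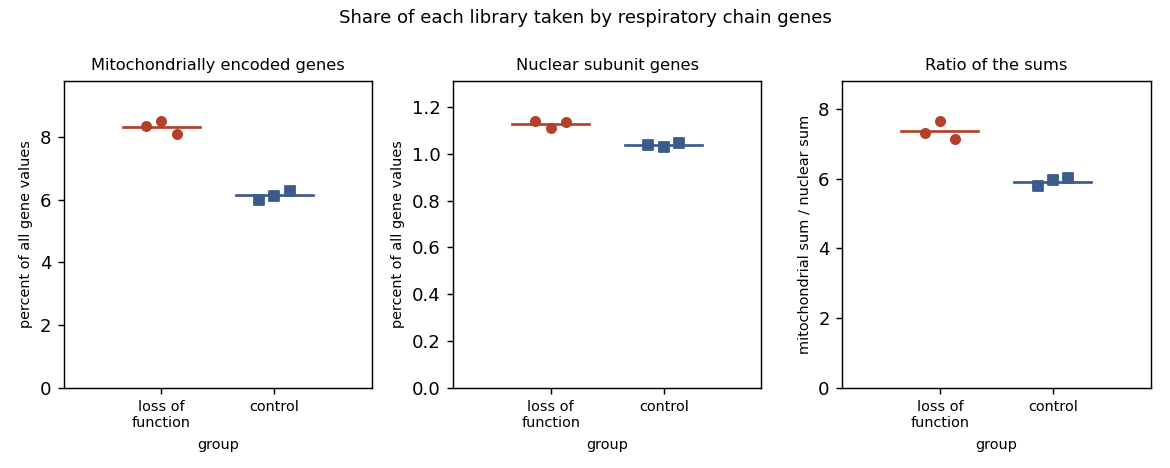
Share of each library's gene values taken by the 13 mitochondrially encoded genes (left, percent) and by the nuclear subunit genes (middle, percent), and the ratio of their sums (right), with 1 point per library and a line at the mean of 3 libraries in each group. In each panel the 3 loss of function libraries lie above the 3 control libraries, and the mean mitochondrial share is 8.33% in loss of function and 6.14% in control libraries.

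Of the 13 mitochondrial genes, 12 rose and 0 fell by limma. At an unadjusted p under 0.05, 13 were higher and 0 lower by limma, where 25.4% of all genes were higher and 24.0% lower. After adjustment edgeR and DESeq2 each called 13 higher and 0 lower, where 21.3% (edgeR) and 18.9% (DESeq2) of all genes were called higher and 20.7% (edgeR) and 17.3% (DESeq2) lower. All 13 were higher in every loss of function library than in any control library. With quantile normalization 10 rose and 0 fell, where 20.4% of all genes rose and 19.8% fell. By log2 change with the deposited scaling, the 3 complex IV genes came first and the 2 complex V genes last.

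MT-CO1, the catalytic core of cytochrome c oxidase (complex IV) with the highest normalized read count of all genes, had normalized read counts of 1207036, 1221833 and 1130317 in loss of function trunks, against 662189, 670041 and 728926 in control trunks. Control replicate 3 came nearest to the loss of function libraries and the gap between the groups stayed wide. The ratio of the means was 1.73 and the log2 change 0.79 (SE 0.11, limma adjusted p = 2.30e-05). Quantile normalization sets its change to 0.00, because it gives the top-ranked gene of each library the same value. MT-CO2, which takes up electrons from cytochrome c, had 458079, 447233 and 436055 in loss of function trunks, against 260025, 276570 and 302495 in control trunks. MT-CO3, the third core subunit, had 566798, 559790 and 527894 in loss of function trunks, against 334159, 343728 and 371681 in control trunks. The groups lay well apart for both. Their log2 changes were 0.68 (SE 0.09, limma adjusted p = 1.39e-05) for MT-CO2 and 0.66 (SE 0.09, limma adjusted p = 2.51e-05) for MT-CO3.

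The complex III gene MT-CYB, which encodes cytochrome b, had 287048, 285983 and 271035 in loss of function trunks, against 190677, 199644 and 201428 in control trunks. It rose by 0.51 on the log2 scale (SE 0.08, limma adjusted p = 5.18e-05). The 7 genes of complex I, which encode its proton-pumping membrane arm, all rose, with log2 changes between 0.38 and 0.53. MT-ND3 was at the upper end, with 33195, 31877 and 31853 in loss of function trunks, against 20283, 23003 and 24113 in control trunks (log2 change 0.53, SE 0.06, limma adjusted p = 4.98e-06). MT-ND1 was at the lower end, with 178740, 173012 and 169021 in loss of function trunks, against 124768, 137533 and 138040 in control trunks (0.38, SE 0.07, limma adjusted p = 4.43e-04). The 95% intervals of MT-ND1 (0.23 to 0.53) and MT-ND3 (0.40 to 0.66) overlap. Between them lay MT-ND2 (0.41), MT-ND4 (0.39), mt-nd4l (0.40), MT-ND5 (0.43) and MT-ND6 (0.48). MT-ND6 is the member encoded on the other strand of the circle, and as the libraries did not keep strand, its reads cannot be told apart from reads of the opposite strand.

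The complex V genes changed least. MT-ATP6, the proton channel subunit of the ATP synthase, had 334225, 335683 and 309707 in loss of function trunks, against 265008, 291436 and 290493 in control trunks. The groups did not overlap, and the log2 change of 0.21 (SE 0.08) missed the threshold (limma adjusted p = 0.0537). MT-ATP6 was called by edgeR at an adjusted p of 0.0219 and by DESeq2 at 9.25e-04, and by limma at 0.00451 once control replicate 3 was left out. Its change was -0.02 with quantile normalization. Its neighbour mt-atp8 had 56185, 57887 and 52275 in loss of function trunks, against 46918, 45947 and 47790 in control trunks. It rose by 0.24 on the log2 scale (SE 0.06, limma adjusted p = 0.00324), a call lost with the same total per library (0.10, limma adjusted p = 0.0996) and with quantile normalization (0.06, limma adjusted p = 0.315). The vertebrate genes for these subunits overlap, as do those of mt-nd4l and MT-ND4, so reads in the shared bases cannot be assigned to either.

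**Figure D2:**
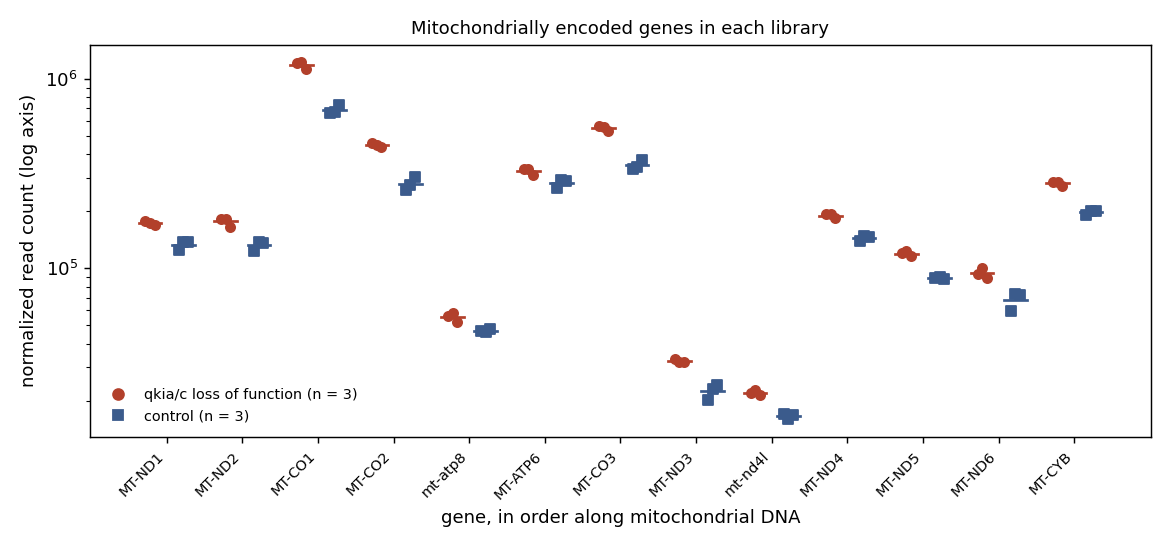
Normalized read counts (log axis) of the 13 mitochondrially encoded genes in each library, in gene order, with loss of function libraries as circles to the left of control libraries as squares and a line at each mean. In every gene the 3 loss of function libraries lie above the 3 control libraries, and the gap is widest for MT-CO1, MT-CO2 and MT-CO3.

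Along the circle of mitochondrial DNA, MT-CO2, mt-atp8, MT-ATP6 and MT-CO3 follow each other, by the order of the mitochondrial genes in RefSeq's GRCz12tu assembly, so that both complex V genes lie between complex IV genes that changed more. The value of MT-CO3 was 1.70, 1.67 and 1.70 times that of its neighbour MT-ATP6 in loss of function trunks, against 1.26, 1.18 and 1.28 times in control trunks. The value of MT-CO2 was 8.15, 7.73 and 8.34 times that of mt-atp8 in loss of function trunks, against 5.54, 6.02 and 6.33 times in control trunks. Neither ratio depends on the scaling of the libraries, and in neither did the groups overlap. The log2 differences were 0.45 for MT-CO3 over MT-ATP6 and 0.44 for MT-CO2 over mt-atp8, each with a 2-sided exact permutation p = 0.1 (n = 3 in each group), the smallest that 3 libraries against 3 can give. These were 2 of 3 ratios examined, all chosen after the values were seen, and the adjusted p over the 3 is also 0.1.

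**Figure D3:**
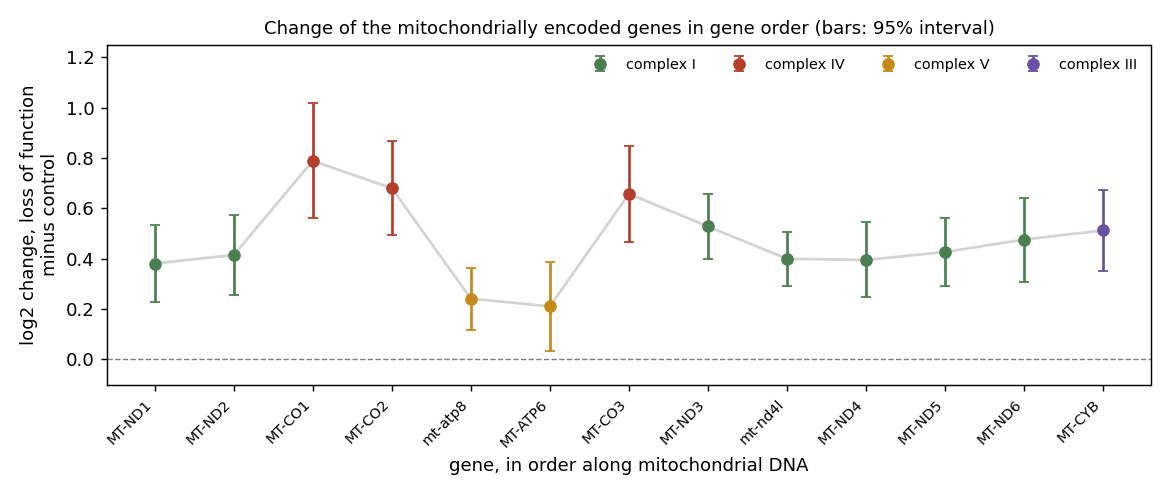
Log2 change (loss of function minus control) of each mitochondrially encoded gene, in the order of the genes along mitochondrial DNA, with 95% intervals from limma and colours for the complexes. The complex IV genes lie between 0.66 and 0.79, while mt-atp8 and MT-ATP6, at 0.24 and 0.21, lie between MT-CO2 and MT-CO3. With quantile normalization MT-ATP6 lies at -0.02 and MT-CO1 at 0.00.

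Of the 83 nuclear subunit genes, 81 passed the filter. Of these, 65 rose, 1 fell and 15 did not pass the test, while 21.9% of all genes tested rose and 20.0% fell. The median log2 change of the nuclear subunit genes was 0.26, lower than the 0.43 of the mitochondrial genes. With the same total per library 40 rose and 2 fell, the second being ATP5F1C, where 11.3% of all genes rose and 32.9% fell. These 40 were 15 of 36 in complex I, 0 of 4 in complex II, 2 of 7 in complex III, 11 of 17 in complex IV and 12 of 17 in complex V. By complex, the mitochondrial genes had the larger median in complexes I (0.41, against 0.23 for the nuclear genes), III (0.51, against 0.20) and IV (0.68, against 0.33). In complex V the order was turned, with 0.23 for the mitochondrial and 0.30 for the nuclear genes. These signs held in all 18 settings, the deposited scaling included. The differences were 0.06 to 0.22 in complex I and 0.16 to 0.34 in complex III. They were 0.15 to 0.37 in complex IV and -0.18 to -0.04 in complex V. Most settings could hardly move them, since a scaling of whole libraries, an intensity trend or a block leaves such differences nearly unchanged. Quantile normalization and the fit without loss of function replicate 3 gave the ends of each range. Complexes III and V have only 1 and 2 mitochondrial genes, and the medians were not tested against each other.

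**Figure D4:**
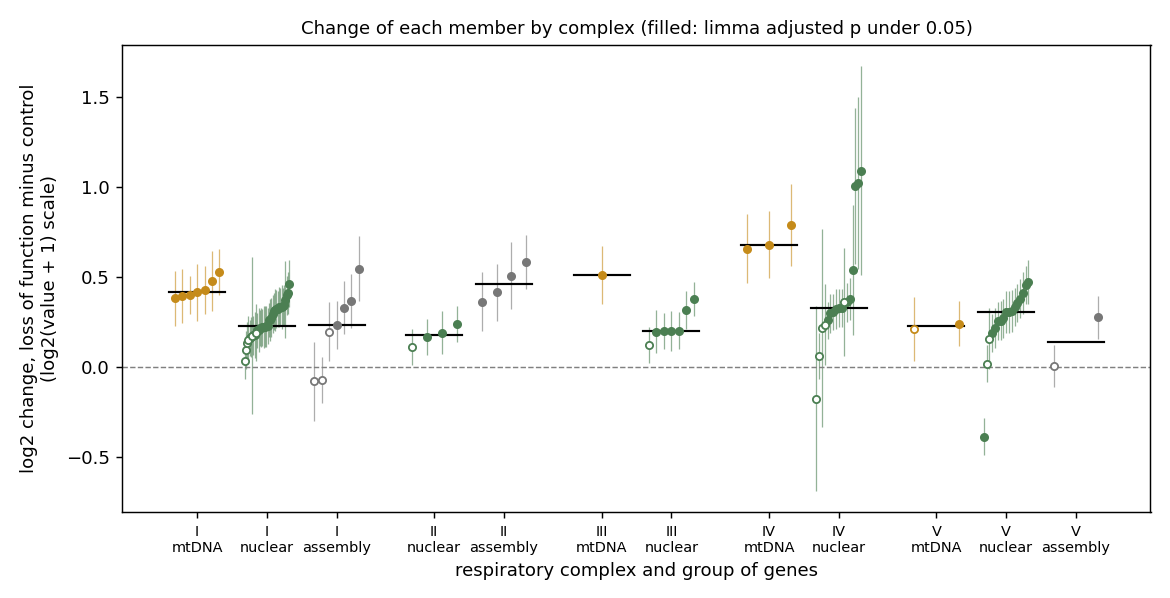
Log2 change (loss of function minus control) of each of the 107 members that passed the filter, grouped by complex and by mitochondrial (mtDNA), nuclear subunit and assembly or regulatory genes, with 95% intervals from limma and black lines at the medians. Filled points passed the test, and 103 of the 107 points lie above 0 with the deposited scaling (95 with the same total per library).

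In complex I, 30 of 36 nuclear genes rose, all by less than 0.5 on the log2 scale, and 15 rose with the same total per library. NDUFA6, an accessory subunit of the peripheral arm, had 4165, 3940 and 3952 in loss of function trunks, against 2623, 3007 and 3144 in control trunks. The groups were well apart (log2 change 0.46, SE 0.06, limma adjusted p = 1.65e-05). The membrane arm subunits NDUFB1 (0.41) and NDUFB11 (0.40), the acyl carrier protein gene ndufab1b (0.34) and the iron-sulfur subunit gene NDUFS8 (0.33) rose too. NDUFV1, whose protein binds NADH, had 9162, 8748 and 8978 in loss of function trunks, against 8031, 7504 and 7550 in control trunks (0.22, SE 0.05, limma adjusted p = 0.00149). Its call was lost with the same total per library (limma adjusted p = 0.186). Among the genes that did not pass the test were NDUFS3 (0.09), NDUFA2 (0.19), NDUFA3 (0.13), NDUFS6 (0.15) and ndufa9b (0.17, with values of 39.6 to 62.8 in loss of function and 39.5 to 51.1 in control trunks).

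Complex II, succinate dehydrogenase, had a median log2 change of 0.18, close to the 0.20 of the nuclear complex III genes. SDHB, its iron-sulfur subunit, had 6078, 5948 and 5756 in loss of function trunks, against 5241, 5370 and 5243 in control trunks (log2 change 0.17, SE 0.05, limma adjusted p = 0.00876). The membrane anchor genes SDHC (0.19) and SDHD (ENSDARG00000030139, 0.24) rose. The calls of SDHB, SDHC and this SDHD were all lost with the same total per library, and those of SDHB and SDHC also without loss of function replicate 1 (limma adjusted p = 0.0658 and 0.0601). SDHA, which carries the FAD, had 6032, 5628 and 5706 in loss of function trunks, against 5369, 5392 and 5316 in control trunks. The groups did not overlap, and its log2 change of 0.11 was not called (limma adjusted p = 0.0707). The second gene named SDHD (ENSDARG00000055712) had 9.97, 9.90 and 8.92 in loss of function trunks and 6.17, 4.93 and 4.06 in control trunks and was left out by the filter.

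In complex III, 6 of 7 nuclear genes rose. The core subunit gene UQCRC2 had 7764, 7543 and 7716 in loss of function trunks, against 5911, 5883 and 5923 in control trunks, with little spread in either group. Its log2 change was 0.38 (SE 0.05, limma adjusted p = 6.21e-06). Its copy uqcrc2a had 6109, 5902 and 5727 in loss of function trunks, against 5569, 5484 and 5262 in control trunks, and its change of 0.12 missed the threshold (limma adjusted p = 0.0540). Leaving out control replicate 1 (0.0365) or filtering at 50 in place of 10 (0.0448) brought the limma adjusted p of uqcrc2a under 0.05. The hinge protein gene UQCRH rose by 0.32, and UQCRC1 and UQCRB by 0.20 each. The calls of UQCRC1 and UQCRB were lost with the same total per library.

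In complex IV, 12 of 17 nuclear genes that passed the filter rose. COX4I1, the gene of the largest nuclear subunit, had 15142, 14647 and 14801 in loss of function trunks, against 11585, 11411 and 12541 in control trunks (log2 change 0.33, SE 0.05, limma adjusted p = 7.07e-05). The small subunit genes cox6c (0.36), cox8a (0.33) and cox6b2 (0.32) rose by similar amounts, as did COX7A2L (0.38), whose protein helps to join complexes III and IV. COX4I2, the other isoform of subunit 4, had 61.8, 55.4 and 52.4 in loss of function trunks, against 26.4, 32.6 and 24.4 in control trunks, a 2.04-fold ratio of means (log2 change 1.01, SE 0.21, limma adjusted p = 8.37e-04). The second gene named COX6A1 (ENSDARG00000054588) had 43.9, 39.6 and 42.4 in loss of function trunks, against 17.6, 20.7 and 22.3 in control trunks (1.02, SE 0.23, limma adjusted p = 0.00161). The second gene named COX5B (ENSDARG00000068738) had 56.8, 52.5 and 47.9 in loss of function trunks, against 14.1, 35.5 and 27.4 in control trunks. Its log2 change was 1.09 (SE 0.28, limma adjusted p = 0.00436), and the control libraries differed more than 2-fold among themselves. Each of these 3 genes has a counterpart with far higher values that rose by less: 0.33 for COX4I1, 0.31 for cox6a1 (ENSDARG00000022438) and 0.26 for COX5B (ENSDARG00000015978). How reads shared by such copies were counted is not given, so single values of the low copies are uncertain.

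The gene cox7a1, which in mammals encodes the isoform of heart and skeletal muscle, had 79.8, 86.1 and 90.3 in loss of function trunks, against 51.1, 53.3 and 73.1 in control trunks (log2 change 0.54, SE 0.17, limma adjusted p = 0.0185). The call of cox7a1 was lost with DESeq2 (adjusted p = 0.0517) and with both scalings to a total. It was also lost when loss of function replicate 2 or 3, or control replicate 1 or 2, was left out, with limma adjusted p-values of 0.0535 to 0.0702. The genes that did not pass were cox4i1l (-0.18), cox8b (0.22), cox5aa (0.36), cox6b1 (0.24) and ndufa4b (0.06). The gene ndufa4l2b had 1 read in all, in control replicate 2, and was left out by the filter.

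Complex V held the only member that fell with the deposited scaling. ATP5MC3, a gene for subunit c, which forms the rotating ring of the ATP synthase, had 9122, 8962 and 8696 in loss of function trunks, against 11419, 12228 and 11435 in control trunks. Every loss of function library was below every control library. Its log2 change was -0.39 (SE 0.05, limma adjusted p = 9.97e-06), and it was called lower under every alternative tried. The gene atp5mc3b, for the same subunit, had 28170, 26851 and 26982 in loss of function trunks, against 20257, 21626 and 21180 in control trunks, and rose by 0.38 (SE 0.05, limma adjusted p = 2.07e-05). The further subunit c gene atp5mc1 rose by 0.25. How reads shared by these genes were counted is not given. The value of ATP5MC3 was 0.324, 0.334 and 0.322 times that of atp5mc3b in loss of function trunks, against 0.564, 0.565 and 0.540 times in control trunks. The groups were far apart, with a log2 difference of -0.77 (2-sided exact permutation p = 0.1, the smallest possible; n = 3 in each group). The pair was chosen after its values were seen. Both genes had already moved in opposite directions without overlap, so the separation of their ratio was given in advance and adds no support.

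**Figure D5:**
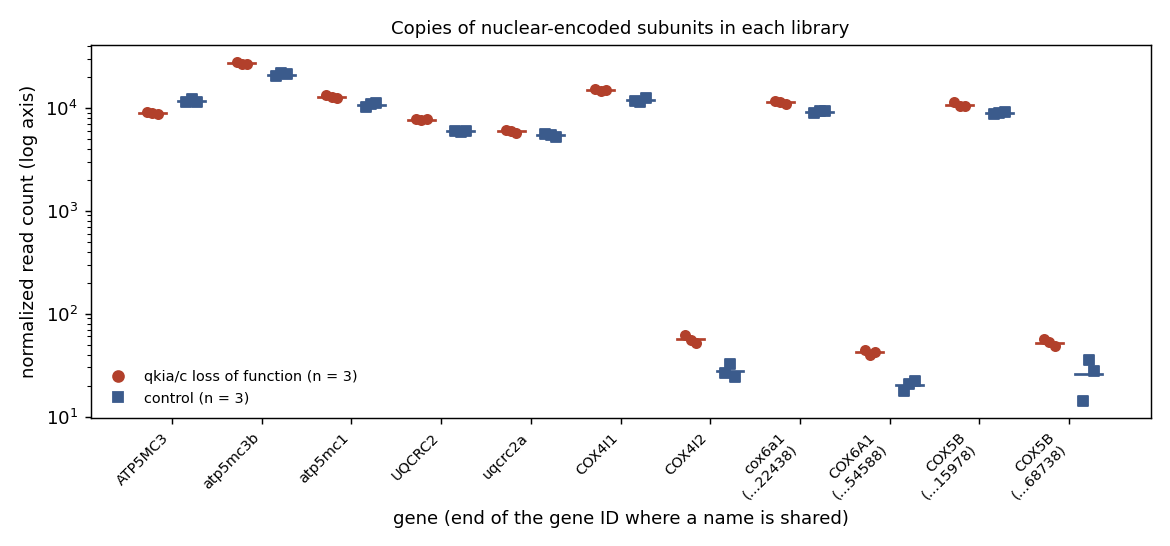
Normalized read counts (log axis) of nuclear subunit genes that have copies, with 1 point per library, loss of function libraries as circles to the left of control libraries as squares, and lines at the means. ATP5MC3 is lower in loss of function trunks while atp5mc3b and atp5mc1 are higher, and the low copies COX4I2, COX6A1 and COX5B reach about 2-fold (2.04, 2.07 and 2.04).

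The other nuclear genes of complex V rose in 14 of 16 cases. ATP5PB, of the stalk that holds the enzyme's head in place, had 18404, 17951 and 17798 in loss of function trunks, against 12916, 12864 and 13748 in control trunks (log2 change 0.45, SE 0.05, limma adjusted p = 2.19e-06). The small membrane subunit gene atp5mj rose by 0.47. The catalytic head subunits ATP5F1A (0.31) and ATP5F1B (0.27) rose by less. ATP5F1C, which encodes the central shaft, had 12776, 11950 and 12265 in loss of function trunks and 11856, 12089 and 12614 in control trunks. These overlap, with a log2 change of 0.02 (95% interval -0.09 to 0.12), and the change lay between -0.12 and 0.04 over the alternatives. The lowest, with the same total per library, was called (limma adjusted p = 0.0244), where 32.9% of all genes fell. Of the copies for subunit e, atp5meb rose (0.33) while the change of atp5mea, 0.16, was not called (limma adjusted p = 0.130). Without control replicate 3 the limma adjusted p of atp5mea was 0.00782.

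Of the 13 assembly and regulatory genes, 9 rose and 0 fell by limma, with a median of 0.33, where 21.9% of all genes rose and 20.0% fell. Unadjusted, 10 were higher and 0 lower by limma at a p under 0.05, against 25.4% and 24.0% of all genes. After adjustment edgeR and DESeq2 each called 9 higher and 0 lower. Over all genes edgeR called 21.3% higher and 20.7% lower, and DESeq2 18.9% higher and 17.3% lower. Scaled to the same total per library, 8 rose and 2 fell, NDUFAF5 and atp5if1b, where 11.3% of all genes rose and 32.9% fell. All 4 sdhaf genes, which help to build complex II, rose, by more in log2 change than its subunit genes that passed the filter. SDHAF2, which attaches FAD to SDHA, had 1153, 1021 and 1048 in loss of function trunks, against 690, 676 and 788 in control trunks (log2 change 0.58, SE 0.07, limma adjusted p = 8.41e-06). The genes sdhaf1 (0.51) and SDHAF3 (0.41), for the iron-sulfur subunit, and SDHAF4 (0.36) followed. For complex I, NDUFAF6 had 509, 461 and 439 in loss of function trunks, against 306, 313 and 345 in control trunks (0.55, SE 0.08, limma adjusted p = 7.79e-05). NDUFAF2 (0.37), NDUFAF4 (0.33) and NDUFAF1 (0.23) rose, while NDUFAF7 (0.20), NDUFAF5 (-0.07) and NDUFAF8 (-0.08) did not pass the test. Of the inhibitors of the ATP synthase, atp5if1a rose by 0.28 and atp5if1b, at 2920, 2891 and 3113 in loss of function trunks and 2801, 2942 and 3162 in control trunks, had a log2 change of 0.00 (95% interval -0.11 to 0.12).

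The control libraries were not alike in these genes. Control replicate 3 was the highest of the 3 control libraries in 75 of the 107 members (70.1%, against 36.2% of all genes tested) and control replicate 1 the lowest in 73 (68.2%, against 36.6%). Without control replicate 3, 70 nuclear subunit genes rose, and without loss of function replicate 1, 57 did. The calls over all 18917 genes tested moved the same way, with 4487 and 3142 higher, respectively, against 4143 with all libraries.

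Other genes of mitochondrial energy metabolism were counted against the same background, 21.9% higher and 20.0% lower over all genes with the deposited scaling and 11.3% higher and 32.9% lower with the same total per library. The lists of names are incomplete. For coenzyme Q, cytochrome c and assembly, 46 of 54 names were matched, and for pyruvate dehydrogenase and the citric acid cycle 23 of 25. For mitochondrial DNA expression 22 of 31 were matched, and for regulators of mitochondrial genes 14 of 17, some to 2 genes. Of 46 genes for coenzyme Q, cytochrome c and assembly, 18 rose and 2 fell (median 0.11), but 10 rose and 8 fell with the same total per library. The cytochrome c gene cycsb rose by 0.43 (SE 0.05, limma adjusted p = 6.34e-06), and the assembly factor genes cox16 (0.53), COA7 (0.51) and COA4 (0.52) also rose. Those that fell were ACAD9 (-0.35) and ATPAF2 (-0.23). Of 24 genes of pyruvate dehydrogenase and the citric acid cycle, 12 rose and 3 fell (median 0.17), or 3 and 4 with the same total. SUCLG2 (0.57) and SUCLG1 (0.33), of the enzyme that makes succinate, and pdha1a (0.30) rose. Of the dehydrogenase kinase genes, PDK2 (ENSDARG00000020876, -0.36) and PDK4 (-0.41) fell. The kinase genes PDK1 (-0.008), PDK3 (-0.10) and the other PDK2 (ENSDARG00000059054, -0.22) did not pass the test. The gene pdha1b also fell (-0.71), but its values were under 50 in every library, far below those of pdha1a.

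Of 22 genes for mitochondrial DNA expression, 6 rose and 1 fell (median 0.13), or 3 and 4 with the same total. The 6 are 27.3% of the list, near the 21.9% of all genes. Of mitochondrial RNase P, which cuts tRNAs out of the long transcripts, the genes of the partner proteins rose, trmt10c by 0.57 (SE 0.08, limma adjusted p = 1.84e-05) and HSD17B10 by 0.30. The gene of its catalytic subunit, PRORP (0.14, limma adjusted p = 0.315), and ELAC2 (0.02, limma adjusted p = 0.845), which cuts the other end of the tRNAs, did not pass the test. The other genes that rose were tbrg4 (0.23), TFAM (0.21), which packs and helps to transcribe mitochondrial DNA, LRPPRC (0.21), which stabilizes mitochondrial messages, and MTERF4 (0.51). POLG2, of the mitochondrial DNA polymerase, fell (-0.33). Of 15 tested regulators of mitochondrial genes, 6 rose and 3 fell, or 5 and 5 with the same total. ESRRA (0.49), ESRRG (0.35), GABPB1 (0.70), YY1 (ENSDARG00000042796, 0.39), NFE2L2 (0.36) and pprc1 (0.18) rose. Those that fell were PPARGC1A (-0.40), a coactivator that drives mitochondrial biogenesis, NRF1 (-0.16) and hif1aa (-1.06). PPARGC1A and hif1aa had low values, with loss of function and control means of 95.9 and 127, and of 61.6 and 130. HIF1A, with means of 6058 and 5648, was not called (0.10, limma adjusted p = 0.101), and pprc1 had means of 1975 and 1750.

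Markers of the tissues in a trunk differed between the same libraries. The lists are incomplete, since 14 of 16 fast muscle, 8 of 11 slow muscle and 13 of 17 primitive erythroid names were matched, some to 2 genes. Among the names without a match, and so in no count or sum, were mylpfa and mylpfb of fast muscle and smyhc1, smyhc2 and smyhc3 of slow muscle. Of 14 primitive erythroid genes, 13 rose and 1 fell, and their summed values were 88325 to 90896 in loss of function libraries and 10583 to 30176 in control libraries. Of 16 fast muscle genes, 4 rose and 7 fell, with sums of 2146706 to 2224729 in loss of function libraries and 1819660 to 2207516 in control libraries, which overlap. Among the fast muscle genes 1 rose and 7 fell with the same total per library. Of 8 slow muscle genes, 0 rose and 4 fell, or 0 and 7 with the same total. Of 15 neural tube genes, 0 rose and 7 fell, or 0 and 13 with the same total. Of 8 notochord genes, 3 rose and 3 fell, of 10 markers of gut, liver and yolk syncytial layer, 5 rose and 0 fell, and of 7 genes of epidermis and ionocytes, 2 rose and 1 fell. These counts became, with the same total, 1 higher and 4 lower for notochord, 4 and 0 for gut, liver and yolk syncytial layer, and 2 and 1 for epidermis and ionocytes, and the erythroid counts were the same. Over all genes, 21.9% rose and 20.0% fell with the deposited scaling, and 11.3% rose and 32.9% fell with the same total. Only 3 of 8 heart muscle genes passed the filter, of which 2 rose, and the defining marker MYL7 was at 0 in every control library with a mean of 0.995 in loss of function trunks. No matched marker was at 0 in every library. The part of these tissues in the changes of the respiratory chain genes was not tested.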

How the data were processed

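Poly(A) RNA of 6 zebrafish trunk libraries was read without strand, as 50 bp reads, per the labels' protocols. The deposited gene values are a normalized signal, in which each library's read counts were divided by its own size factor. This was read from the values. Build Zv9, HTSeq 0.5.3, DESeq 1.8.3, STAR 2.4.0j, Bowtie 0.12.9 and SAMtools are listed, with no role for any, per the submitters' processing notes. The treatment of reads that match several near-identical genes is not stated. Divided by what 1 read is worth in its library, 100% of values came out whole to within 0.001 of a read, and these recovered reads (38804265 to 44799398 per library) were used in the alternative tests. They exceed the mean of 27459238 quality-filtered reads per sample that the labels' protocols give, and the reason is not known. In 2 libraries that value lay too close to 1 for a standard check of this recovery.

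Gene IDs were paired with symbols from a reference table, in which 18555 of 24789 IDs had a symbol. The test was limma 3.58.1 (R 4.3.3, eBayes with an intensity trend) on log2(value + 1), over the 18917 genes that reached 10 in 3 or more libraries. It was 2-sided, with Benjamini-Hochberg adjustment over all genes tested and a threshold of 0.05. Fold changes on this scale understate the change of genes with low values. Alternatives were edgeR 4.0.16 and DESeq2 1.42.0 on the recovered reads, other pseudocounts, filters and scalings, no intensity trend, a block for the replicate number, and each library left out in turn. Simulated counts with known changes were used to try out the fits.

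The members, the pathway lists and the cell type markers were chosen with earlier results of these data known. Named members were the 13 mitochondrial genes and, per complex and for assembly factors, the 4 smallest adjusted p-values with a mean of at least 50 and the 2 largest means. Calls of at least 0.5 in size on the log2 scale, copies whose calls differed and members left out by the filter were named too. Other named genes, and the within-library ratios of neighbouring or paralogous genes, were chosen after their values were seen. Genes of the lists were matched by symbol, or after a final a or b was dropped or added. Exon tables were not used here, since they pair no exon with a gene. Sequences and coordinates of the members were not analysed here. A result on a single member was left out and is not reported here.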

Additional observations from a re-analysis of the deposited data

How the results depend on the processing

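With 1 library left out in turn, 57 to 70 nuclear subunit genes rose and 1 fell, 12 to 13 mitochondrial genes rose and 0 fell, 9 to 10 assembly genes rose and 0 fell, and the ratio of mitochondrial shares was 1.34 to 1.37. Of all 18917 genes tested, 3142 to 4487 rose and 2968 to 3908 fell in these fits. With the same total per library, 40 nuclear subunit genes rose and 2 fell, and 2 assembly genes fell, where 11.3% of all genes rose and 32.9% fell. With the same total of the genes outside mitochondrial DNA, 1 assembly gene fell, where 13.4% of all genes rose and 29.4% fell. These scalings lower the loss of function values relative to the control values by construction. Within the members alone the mitochondrial share stood in a ratio of 1.03. Of the 47 named members called, 37 were called in every alternative in which they were tested. The filter at 50 in place of 10 left out the low copies of COX5B and COX6A1, so they were not tested there. Signs changed where no call had been made: MT-ATP6 was -0.017 with quantile normalization, and SDHA was -0.029, uqcrc2a -0.019 and ndufa4b -0.077 with the same total per library. With the same total of the other genes ndufa4b was -0.043, and with 1 library left out it was -0.00037 to 0.12. For atp5if1b the change was -0.0023 with edgeR, -0.0022 with DESeq2, -0.043 with quantile normalization, -0.14 with the same total per library (the only one of these called), -0.10 with the same total of the other genes, and -0.037 to 0.050 with 1 library left out. The cause was not tested beyond the scaling. Without an intensity trend 55 nuclear subunit genes rose and 1 fell, where 3173 of all 18917 genes tested rose and 3055 fell. In that fit 8 assembly genes rose and 0 fell. With quantile normalization 57 nuclear subunit genes rose and 1 fell, where 3852 of all genes tested rose and 3740 fell. The replicate number as a block gave 69 nuclear subunit genes higher, where 4055 of all 18917 genes tested were higher and 3759 lower. Same-numbered libraries did not deviate together (correlations of -0.07, 0.01 and -0.02). The loss of function libraries differed so little that a pairing by number could stay hidden. Counting error weighs most on members with few reads, such as COX4I2, cox8b and ndufa9b.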
